A study of Mus musculus with 12 samples.

Results

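The genes of glycolysis and the pentose phosphate pathway were described in splenic conventional dendritic cells of type 1 (cDC1) and type 2 (cDC2), sorted from female C57/BL6 mice. The set held 32 genes, fixed by name: the glycolytic enzymes, the glucose and monocarboxylate transporters, the regulatory enzymes PFKFB3, PFKFB4 and PDK1, the pyruvate dehydrogenase subunit PDHA1, and the enzymes of both arms of the pentose phosphate pathway. Membership also asked for at least 1 CPM (counts scaled to a common library size, in parts per 1e+06) in 3 or more of the 12 libraries. All 32 met this, of 27179 genes in the counts. Ldhb met it through cDC2 alone, and so had to differ between the subsets.

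The 4 groups were cDC1 from mice labelled zfp366-/- (KO), cDC1 from wild-type mice (WT), and KO and WT cDC2, with 3 libraries each. In all groups the spleens were broken up with collagenase and DNAse, and libraries were made from polyA RNA by TruSeq. Each library was a mouse pool, and each of the 6 pools gave 1 cDC1 and 1 cDC2 library. The labels give neither the age of the mice nor the form of the Zfp366 deletion. The product of Zfp366, known as DC-SCRIPT, is a zinc finger factor found in dendritic cells.

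Libraries held 11330503 to 36761685 counted reads, and the 32 genes together took 0.299% to 0.524% of them. Zfp366 had 48.8, 48.4 and 45.4 CPM in KO cDC1, against 152, 89.2 and 67.5 CPM in WT cDC1, a log2 fold change of -1.12 (SE 0.27, adjusted p = 0.0326, edgeR). In cDC2 it had 55, 80.6 and 65.1 CPM in KO, against 52.6, 62.4 and 57.4 CPM in WT cDC2 (log2 fold change 0.22). The gene-level count thus did not separate the cDC2 libraries labelled KO from those labelled WT, and "KO" below means that label. Summed over 6 markers, cDC1 genes (Xcr1, Clec9a and others) reached 2610 to 2977 CPM in KO cDC1, 4011 to 4821 CPM in WT cDC1, 53.1 to 66.2 CPM in KO cDC2 and 24.4 to 136 CPM in WT cDC2, in the direction of the sort labels. The KO cDC1 sums lay below all WT cDC1 sums, and 1 of the 6 genes, Itgae, was called lower in KO cDC1 (-4.02, adjusted p = 0.00296). The 6 cDC2 markers (Sirpa, Itgam and others) summed to 466 to 475 CPM in KO cDC1, 52.2 to 69.2 CPM in WT cDC1, 1999 to 2318 CPM in KO cDC2 and 1897 to 2139 CPM in WT cDC2. All 6 were called higher in KO than in WT cDC1, with log2 fold changes of 2.05 (Sirpa) to 4.80 (Itgam), where 3.6% of all tested genes were. For all 6 the KO minus WT difference was also called larger in cDC1 than in cDC2, where 1.27% of all genes were. In bulk RNA, fewer cells of a type and less RNA per cell cannot be told apart.

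Glycolysis splits glucose into pyruvate, which lactate dehydrogenase turns into lactate or pyruvate dehydrogenase feeds to the mitochondria. The pentose phosphate pathway branches off at glucose 6-phosphate: its oxidative arm makes NADPH, and its non-oxidative arm, run by transketolase and transaldolase, exchanges sugars with glycolysis. Dendritic cells are known to raise glycolysis on activation. Several steps exist as isozymes with different kinetics, and many of these genes are known targets of the hypoxia-inducible factor, which binds a core written ACGTG or GCGTG.

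The promoters of 4 genes are shown here because the genotype contrast (Pfkfb4, Tkt) and the opposite subset bias of the lactate carriers (Slc16a1, Slc16a3) turn on them. Each line gives the 250 bases before a RefSeq transcription start on GRCm38.p6, on the gene's strand, with every ACGTG or GCGTG of either strand in capitals. The windows are chr9:108991652-108991901 (plus strand) for Pfkfb4, chr14:30548881-30549130 (plus) for Tkt, chr3:104638414-104638663 (plus) for Slc16a1 and chr11:120948817-120949066 (plus) for Slc16a3.
Pfkfb4: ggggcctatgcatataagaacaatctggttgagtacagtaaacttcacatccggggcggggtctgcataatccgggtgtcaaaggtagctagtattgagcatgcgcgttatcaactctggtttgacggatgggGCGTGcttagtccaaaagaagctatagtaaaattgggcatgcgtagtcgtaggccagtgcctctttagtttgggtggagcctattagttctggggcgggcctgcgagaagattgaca
Tkt: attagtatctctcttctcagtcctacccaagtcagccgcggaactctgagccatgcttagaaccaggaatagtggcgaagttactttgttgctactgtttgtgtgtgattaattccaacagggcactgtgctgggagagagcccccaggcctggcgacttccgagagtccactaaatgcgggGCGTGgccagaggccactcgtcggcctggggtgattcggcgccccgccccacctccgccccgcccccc
Slc16a1: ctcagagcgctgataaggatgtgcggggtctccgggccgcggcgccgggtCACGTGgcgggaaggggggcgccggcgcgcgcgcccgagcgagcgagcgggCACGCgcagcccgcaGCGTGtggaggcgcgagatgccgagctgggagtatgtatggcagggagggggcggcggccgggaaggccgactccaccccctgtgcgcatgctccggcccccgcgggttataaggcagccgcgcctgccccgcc
Slc16a3: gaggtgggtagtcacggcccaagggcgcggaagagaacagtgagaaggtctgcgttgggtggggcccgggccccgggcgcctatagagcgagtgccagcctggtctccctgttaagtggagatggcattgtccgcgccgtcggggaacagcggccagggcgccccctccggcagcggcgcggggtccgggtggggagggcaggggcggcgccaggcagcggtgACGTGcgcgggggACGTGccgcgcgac
RefSeq had 45 such windows for 31 of the 32 genes. The gene without one was Slc2a3, which was also called between the genotypes in cDC1. ACGTG stood in 15 of the 45, against 16.6% of 32851 windows over all genes, and GCGTG stood in 26 of them, against 28.2%. In Slc16a1 the palindrome CACGTG holds both ACGTG matches, 1 on each strand. A match is a run of letters, and binding was not measured.

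Per kilobase of gene length, which allows genes to be compared, the set spanned more than 2 orders of magnitude in mean level over the 12 libraries. Taldo1 (transaldolase) was highest at 691 CPM per kilobase, followed by Ldha at 300, Tkt (transketolase) at 192, Pkm (pyruvate kinase) at 130, Gpi1 (glucose 6-phosphate isomerase) at 127.9 and Aldoa at 108. Pkm and Gpi1 did not differ beyond their spread, with group means of 114 to 149 and 110 to 151 CPM per kilobase. Next came Pgk1 at 75, Tpi1 at 65.3, Pgam1 at 55.7, Eno1 at 48.6, Pgd at 39.5, Rpia at 29.0, Rpe at 28.5, Pfkfb3 at 26.9, Slc2a3 at 22.3, Pdha1 at 20.8 and Pgls at 20.7. Over all 12 libraries the lowest means were those of Ldhb at 1.58 and Pfkm, the muscle-type phosphofructokinase, at 1.27 CPM per kilobase. The order differed by subset: in cDC2, Hk3 (0.978 in KO and 1.21 in WT) lay below Ldhb.

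Gapdh, a common reference gene, stood at 18.7 CPM per kilobase, with 14 of the 32 below it. Its values were 27.7, 24.0 and 28.5 CPM in KO cDC1, 22.7, 28.6 and 24.9 CPM in WT cDC1, 21.1, 19.6 and 19.6 CPM in KO cDC2 and 25.5, 16.3 and 18.4 CPM in WT cDC2. Its longest protein-coding transcript shares at least 100 bases at 95% identity or more with 81 other genes, of which 77 are annotated as pseudogenes. Reads of Gapdh may thus have been split or dropped in counting, and its level is uncertain. Ldha and Gpi1 had 5 such genes each, Pgk1 had 4 and Eno1 had 3, while 17 of the 32, including Pfkfb4, Slc2a3, Tkt and Hk3, had none.

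In cDC1, Pfkfb4, Slc2a3 and Tkt were higher in KO than in WT. The 3 genes serve different steps: Slc2a3 encodes the glucose transporter GLUT3, Pfkfb4 a bifunctional enzyme that sets fructose 2,6-bisphosphate, an activator of phosphofructokinase, and Tkt the transketolase of the pentose phosphate pathway. By edgeR's quasi-likelihood test with Benjamini-Hochberg adjustment over 13415 genes, these 3 of the 32 rose in KO cDC1, where 3.6% of all tested genes rose. None of the 32 fell, where 1.72% of all genes fell and 5.32% changed either way. At an unadjusted p below 0.05, 4 were higher and 4 lower, where 18.8% of all genes passed, and DESeq2 called 4 higher and 2 lower, where it called 1283 genes in all. The set had no common direction: 16 log2 fold changes were above 0 and 16 below, with a median of 0.01 against 0.00 over all genes.

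Pfkfb4 had 14.2, 14.7 and 16.1 CPM in KO cDC1, against 6.71, 5.26 and 5.03 CPM in WT cDC1. Every KO library stood above every WT library. The log2 fold change was 1.41 (SE 0.22, adjusted p = 0.00211), a 2.65-fold rise. Both cDC2 groups were higher still, at 21, 16.4 and 19.2 CPM in KO cDC2 and 30.6, 22.4 and 25 CPM in WT cDC2.

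Slc2a3 had 37.7, 32.2 and 32.4 CPM in KO cDC1, against 11.3, 4.90 and 3.58 CPM in WT cDC1. The groups did not overlap, and WT replicate 1 was the highest of the WT libraries. The log2 fold change was 2.37 (SE 0.40, adjusted p = 0.00398), a 5.16-fold rise. In cDC2 the gene was far higher, at 243, 125 and 125 CPM in KO and 177, 150 and 118 CPM in WT. Slc2a3 lies on chromosome 6, and of 102 tested genes within 5 Mb of it, 15 (14.7%) were called in the same contrast, 14 of them higher, among them Clec4a1, Clec4a2, Clec4a3, Clec4a4, Cd4 and Cd163. The same windows held 4 called genes of 113 (3.54%) around Pfkfb4 and 1 of 63 (1.59%) around Tkt.

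Tkt had 1007, 973 and 1015 CPM in KO cDC1, against 505, 450 and 402 CPM in WT cDC1. The KO libraries lay close together and all above the WT ones. The log2 fold change was 1.14 (SE 0.25, adjusted p = 0.0209), a 2.21-fold rise. The KO cDC1 libraries also stood above all cDC2 libraries, which had 588, 473 and 493 CPM in KO and 706, 405 and 369 CPM in WT. The call was lost on leaving out any 1 of the KO cDC1 libraries or WT cDC1 replicate 2 or 3, with adjusted p of 0.0698 to 0.103 and log2 fold changes of 1.06 to 1.16.

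**Figure D1:**
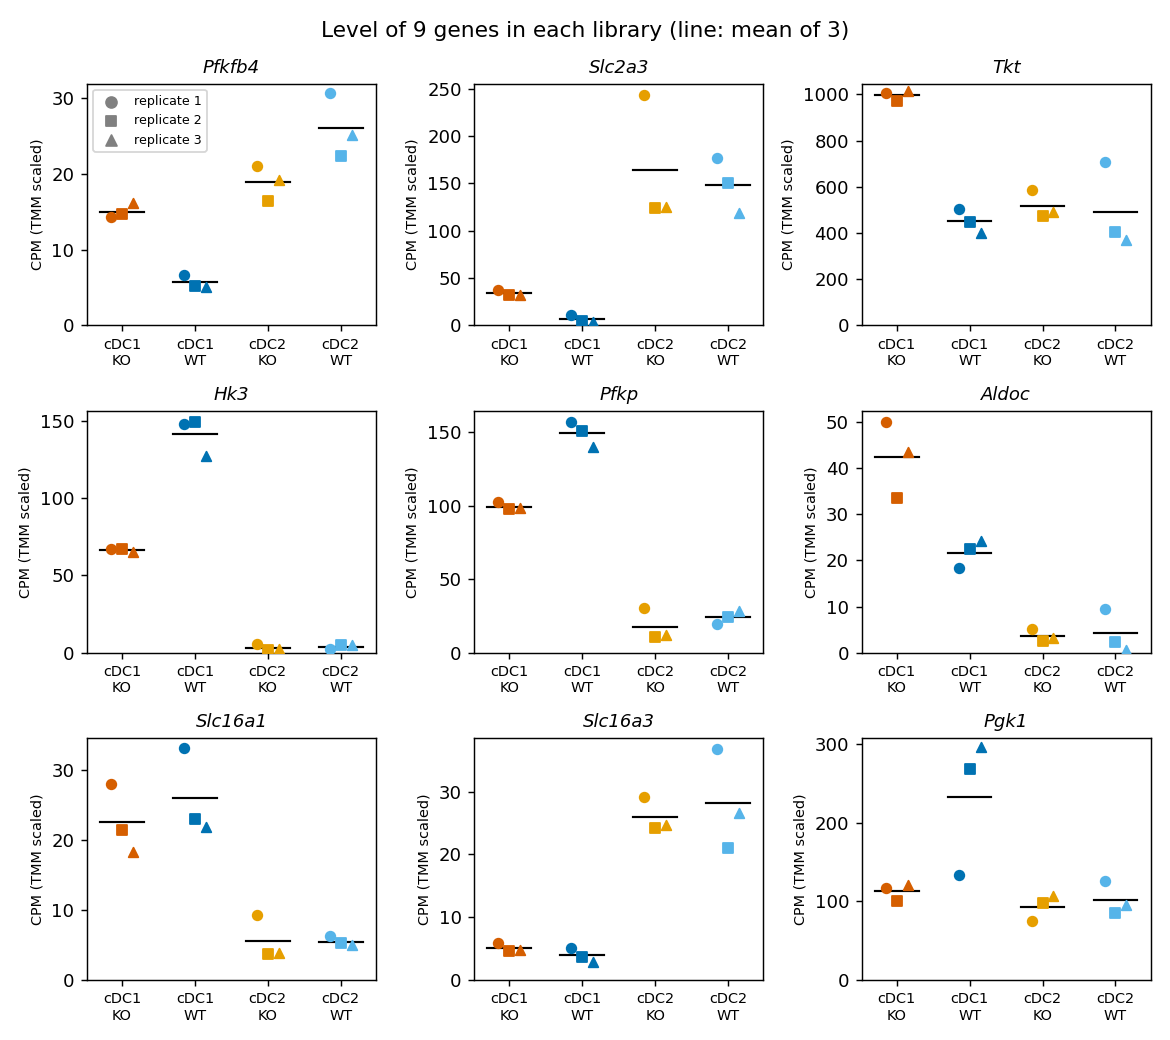
Level of 9 genes in each of the 12 libraries, in CPM scaled by TMM, by group, with the line at the mean of 3 libraries and the marker shape giving the replicate number. Pfkfb4, Slc2a3 and Tkt in KO cDC1 lie above all WT cDC1 libraries, and Pgk1 in WT cDC1 splits into replicate 1 at 133 CPM and the other replicates at 268 and 297 CPM.

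Several further genes moved by more than a log2 unit or near it without passing the adjusted threshold. G6pdx, the entry enzyme of the oxidative arm, had 71.7, 60.8 and 62.7 CPM in KO cDC1, against 34.7, 29.5 and 28.4 CPM in WT cDC1 (log2 fold change 1.08, SE 0.30, adjusted p = 0.0633). Hk3, a hexokinase of myeloid cells, had 66.8, 67.0 and 65.3 CPM in KO cDC1, against 148, 149 and 127 CPM in WT cDC1 (log2 fold change -1.09, SE 0.38, adjusted p = 0.136). Neither gene's groups overlapped.

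Pgk1, phosphoglycerate kinase, had 117, 100 and 121 CPM in KO cDC1, against 133, 268 and 297 CPM in WT cDC1 (log2 fold change -1.04, SE 0.29, adjusted p = 0.0556). Ldha, which makes lactate, had 521, 448 and 517 CPM in KO cDC1, against 517, 1002 and 1078 CPM in WT cDC1 (log2 fold change -0.81, SE 0.28, adjusted p = 0.134). For both genes WT replicates 2 and 3 stood far above WT replicate 1, which lay near the KO libraries.

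In the relation of read number to gene length, too, WT cDC1 replicate 1 lay near the KO cDC1 libraries and apart from WT cDC1 replicates 2 and 3. Over all tested genes, the Spearman correlation of a library's log2 ratio to the 12-library mean with gene length was 0.303, 0.411 and 0.32 in KO cDC1 and 0.447, -0.242 and -0.335 in WT cDC1. The KO cDC2 libraries gave 0.212, -0.234 and -0.203, and the WT cDC2 libraries -0.329, -0.0881 and -0.0956. Leaving out WT cDC1 replicate 1 thus leaves a positive trend in every KO cDC1 library and a negative one in both WT cDC1 libraries. The same holds for the cDC1 libraries numbered 2 and 3 alone. Without WT cDC1 replicate 1, 10 of the 32 genes were called, where 22.3% of all genes were: Slc2a3 (3.01), Pfkfb4 (1.55), Hk2 (1.55), Tkt (1.23), G6pdx (1.17), Hk1 (1.03) and Pfkfb3 (0.58) were higher (11.8% of all genes), and Pgk1 (-1.32), Ldha (-1.07) and Rpe (-0.58) lower (10.5%), by log2 fold change. The genes so added had lengths of 5513 (Hk2), 5285 (Pfkfb3), 4509 (Hk1), 2630 (Rpe), 2616 (G6pdx), 1930 (Ldha) and 1801 bases (Pgk1). The median tested gene had 2644 bases. With only the libraries numbered 2 and 3, 18 were called, 8 higher (24.9% of all genes) and 10 lower (22.9%), where 47.8% of all genes were called either way. With offsets that removed each library's trend on gene length, 5 were called, G6pdx and Pgk1 joining the 3, where 7.28% of all genes were. Among the genes that passed with these offsets and numbers 2 and 3 alone were G6pdx, Hk3, Ldha, Pgk1 and Rpe. The counts for that setting, over the set and over all genes, are given at the end. The part of these library differences, and of the higher cDC2 and lower cDC1 marker sums in KO cDC1, in the genotype results was not tested. Of the 4 genes called lower in WT cDC1 than in WT cDC2, Slc2a3 (2.37) and Pfkfb4 (1.41) were called higher in KO than in WT cDC1. Slc16a3 (0.37) and Ldhb (0.69) were not called. Slc16a3 had 5.85, 4.54 and 4.67 CPM in KO cDC1, against 5.06, 3.67 and 2.89 CPM in WT cDC1. Ldhb had only 9 reads in all in KO cDC1 and 4 in WT cDC1.

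Without regard to the test, KO and WT cDC1 libraries did not overlap for 11 of the 32 genes. Aldoc, Tkt, Rpia, Slc2a3, Pfkfb4 and G6pdx lay wholly higher in KO (15.5% of all genes did), and Pfkp, Hk3, Pgam1, Taldo1 and Pgk1 wholly lower (11.4% of all genes did). Rpe, the ribulose phosphate epimerase, averaged 59.3 ± 6.37 CPM in KO and 80.8 ± 18.6 CPM in WT cDC1 (SD, n = 3 each), and Rpia, the ribose phosphate isomerase, 71.1 ± 5.45 and 50.3 ± 4.54 CPM in KO and WT. Of the oxidative arm's other enzymes, Pgd averaged 102 ± 10.6 CPM in KO and 110 ± 8.22 CPM in WT, and Pgls 17.3 ± 2.43 CPM in KO and 19.5 ± 5.78 CPM in WT. Taldo1 averaged 828 ± 35.5 CPM in KO and 1141 ± 237 CPM in WT.

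**Figure D2:**
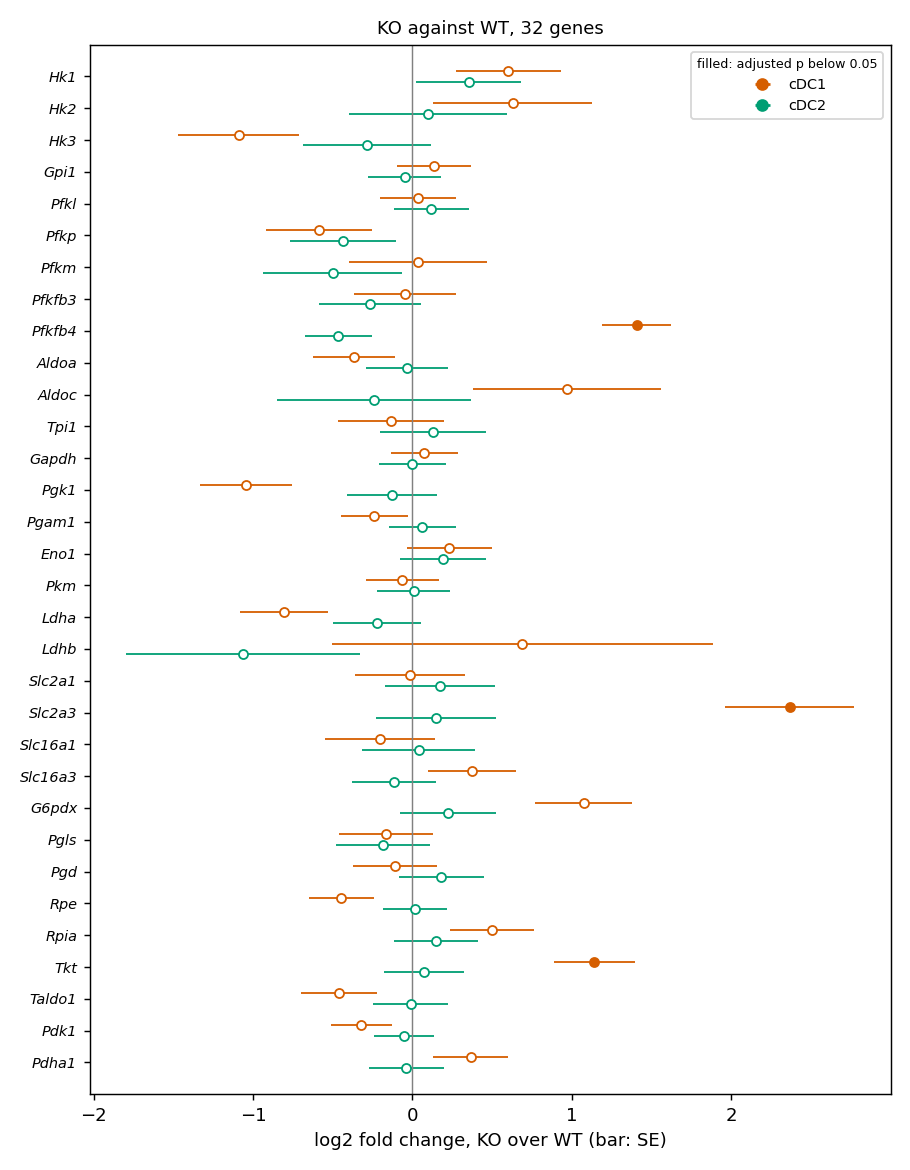
Log2 fold change of KO over WT for the 32 genes in cDC1 (upper point of each pair) and cDC2 (lower point), with bars of 1 standard error and filled points where the adjusted p was below 0.05. Filled points appear for Pfkfb4, Slc2a3 and Tkt in cDC1 and for no gene in cDC2.

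In cDC2 no gene of the set, and no gene of the 13415 tested (0%), was called between KO and WT by edgeR, or by DESeq2. At an unadjusted p below 0.05, 1 of the 32 (Pfkfb4) and 271 of all genes (2.02%) stood out. Pfkfb4 was also the 1 gene of the set whose cDC2 libraries did not overlap, with a log2 fold change of -0.46 (SE 0.21, adjusted p = 1), while 2.55% of all genes lay wholly lower and 3.33% wholly higher. With the libraries numbered 2 and 3 alone, 5 genes were called, Tpi1 higher (3.35% of all genes) and Pfkp, Hk3, Pfkfb3 and Ldhb lower (4.37%), where 7.72% of all genes were called either way. Libraries numbered 1 ran the other way for Hk3, at 5.49 CPM in KO and 2.07 CPM in WT cDC2, whereas numbers 2 and 3 had 1.79 and 2.31 CPM in KO and 5.16 and 4.65 CPM in WT.

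The genotype effect on Pfkfb4 differed between the subsets. The KO effect in cDC1 minus that in cDC2 was 1.87 (log2, SE 0.30, adjusted p = 0.00712), and Pfkfb4 was the 1 gene of the 32 called in this interaction, where 1.42% of all genes were, 1.27% with the larger effect in cDC1 and 0.149% with the smaller. The 3 KO minus WT differences of same-numbered libraries were 1.08, 1.47 and 1.66 in cDC1 whereas in cDC2 they were -0.54, -0.45 and -0.38. For Slc2a3 the difference of effects was 2.22 (SE 0.55, adjusted p = 0.0755), and with the mouse pool as a block it was 2.44 with an adjusted p of 0.0482, making 2 calls where 0.865% of all genes were called. For Tkt it was 1.07 (SE 0.36, adjusted p = 0.241), so a subset difference in its response was not shown. Without WT cDC1 replicate 1, Slc2a3 (adjusted p = 0.00389) joined Pfkfb4 as higher (2.71% of all genes) and Pgk1 (adjusted p = 0.0433) was lower (0.941%), where 3.65% of all genes were called. The interaction called 2 of the 32 with length offsets (2.18% of all genes) and 19 with the libraries numbered 2 and 3 alone (38.3%).

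Between the subsets, Hk3, Pfkp, Aldoc, Pgam1 and the carrier gene Slc16a1 were higher in cDC1, and Slc2a3 and the carrier gene Slc16a3 were lower. In KO, 9 of the 32 were called between cDC1 and cDC2, where 16.9% of all genes were: 6 were higher in cDC1 (8.45% of all genes) and 3 lower (8.43%). In WT, 13 were called, where 21.2% of all genes were: 9 were higher in cDC1 (10.4% of all genes) and 4 lower (10.9%). The calls of Hk3, Pfkp, Aldoc, Pgam1, Slc16a1, Slc2a3 and Slc16a3, and that of Ldhb as lower, were made in both genotypes. Tkt was called in KO alone, and Pfkl, Aldoa, Pgk1, Pdk1 and Pfkfb4 in WT alone. The genotypes share no library, but 1 fit gave both contrasts. Ldhb entered the set through cDC2, so its place among the lower genes is no result. Libraries of the subsets did not overlap for 14 genes higher (25.1% of all genes) and 6 lower (22.7%) in KO cDC1, and for 10 higher (16.5%) and 5 lower (16.2%) in WT cDC1. With the libraries numbered 2 and 3 alone, 25 of the 32 were called in KO (49.2% of all genes) and 25 in WT (47.5%), and with length offsets 11 in KO (20% of all genes) and 17 in WT (27.1%). The median log2 fold change of cDC1 over cDC2 was 0.44 in KO and 0.33 in WT over the set, against 0.00 in KO and 0.02 in WT over all genes. The 7 macrophage markers summed to 96.4 to 169 CPM in cDC1 and 240 to 494 CPM in cDC2 libraries, with none at 0. They did not move as 1: in WT, 3 were called lower in cDC1 (Adgre1, Cd163 and Spic). In KO, 2 were called lower (Adgre1 and C1qa) and 1 higher, Cd163 (log2 fold change 3.36). The part of these markers in the subset differences was not tested.

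At the hexokinase step, which traps glucose in the cell, Hk3 was higher in cDC1 by a log2 fold change of 4.37 in KO (SE 0.44, adjusted p = 2.82e-05) and 5.17 in WT (SE 0.45, adjusted p = 6.45e-06), the second being 36.1-fold. It had 5.49, 1.79 and 2.31 CPM in KO cDC2 and 2.07, 5.16 and 4.65 CPM in WT cDC2, below every cDC1 library. Hk1 and Hk2 showed no called difference. Hk1 had 38.1, 40.2 and 44.1 CPM in KO cDC1, 40.6, 23.0 and 17.1 CPM in WT cDC1, 52.7, 29.7 and 30.8 CPM in KO cDC2 and 21.9, 35.4 and 31.4 CPM in WT cDC2. Hk2 had 65.9, 61.1 and 53.9 CPM in KO cDC1, 75.5, 25.9 and 15.6 CPM in WT cDC1, 54.4, 33.4 and 35.5 CPM in KO cDC2 and 18.8, 47.1 and 49.5 CPM in WT cDC2. In WT cDC1 both were highest in replicate 1, and in WT cDC2 both were lowest there. Gpi1, the next step, averaged 431 ± 41.0 CPM in KO cDC1, 393 ± 30.3 CPM in WT cDC1, 313 ± 37.4 CPM in KO cDC2 and 324 ± 103 CPM in WT cDC2 (SD, n = 3 each) and was called in no comparison.

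At phosphofructokinase, the committed step, Pfkp (platelet type) had 103, 97.8 and 98.2 CPM in KO cDC1, 157, 151 and 140 CPM in WT cDC1, 30.2, 10.3 and 12.3 CPM in KO cDC2 and 19.2, 24.3 and 28.2 CPM in WT cDC2. All 6 cDC1 libraries stood above all 6 cDC2 libraries, with log2 fold changes of 2.5 in KO (SE 0.35, adjusted p = 0.000374) and 2.65 in WT (SE 0.35, adjusted p = 0.000159). Pfkl (liver type) had 54.7, 52.7 and 56.5 CPM in KO cDC1, 66.1, 50.5 and 43.4 CPM in WT cDC1, 44.5, 27.7 and 28.5 CPM in KO cDC2 and 35.3, 31.2 and 26.1 CPM in WT cDC2. It was not called in KO (0.70, adjusted p = 0.0615) and was called in WT (0.79, adjusted p = 0.0323), a call lost on leaving out any 1 of 7 libraries. Pfkm stayed between 2.01 and 5.83 CPM in all 12 libraries, at 5.21, 4.22 and 2.99 CPM in KO cDC1, 5.83, 3.67 and 2.60 CPM in WT cDC1, 4.72, 2.24 and 2.01 CPM in KO cDC2 and 3.16, 3.86 and 5.83 CPM in WT cDC2.

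Among the enzymes that set fructose 2,6-bisphosphate, Pfkfb4 differed by -0.33 between KO cDC1 and KO cDC2 (log2, SE 0.21, adjusted p = 0.312) and was lower in WT cDC1 than in WT cDC2 (-2.20, SE 0.22, adjusted p = 1.7e-05). Pfkfb3 had 179, 172 and 161 CPM in KO cDC1, 299 (replicate 1), 121 and 107 CPM in WT cDC1, 107, 98.4 and 97.3 CPM in KO cDC2 and 104, 129 and 131 CPM in WT cDC2. It was not called, and WT cDC1 replicate 1 stood far above every other library.

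For aldolase, Aldoc (brain type) had 50, 33.6 and 43.5 CPM in KO cDC1, 18.4, 22.4 and 24.2 CPM in WT cDC1, 5.05, 2.58 and 3.27 CPM in KO cDC2 and 9.43, 2.37 and 0.638 CPM in WT cDC2. The cDC1 libraries all lay above the cDC2 libraries, with log2 fold changes of 3.54 in KO (SE 0.65, adjusted p = 0.00262) and 2.33 in WT (SE 0.62, adjusted p = 0.0174). The WT call was lost without WT cDC2 replicate 2 (adjusted p = 0.0738). Aldoa, the main form, had 235, 197 and 224 CPM in KO cDC1, 212, 318 and 314 CPM in WT cDC1, 146, 137 and 142 CPM in KO cDC2 and 207, 120 and 107 CPM in WT cDC2. It was not called in KO (0.63, adjusted p = 0.115) and was called in WT (0.96, SE 0.26, adjusted p = 0.0181), a call lost in 5 of 19 alternatives, among them that without WT cDC2 replicate 2.

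In lower glycolysis, Pgam1, the phosphoglycerate mutase, was higher in cDC1 of both genotypes. It had 136, 128.4 and 129 CPM in KO cDC1, 140, 165 and 160 CPM in WT cDC1, 70.2, 55.6 and 60.9 CPM in KO cDC2 and 78.7, 51.5 and 48.5 CPM in WT cDC2, with no overlap between subsets. The log2 fold changes were 1.08 in KO (adjusted p = 0.00411) and 1.38 in WT (adjusted p = 0.000506). Pgk1 had 74.6, 97.5 and 107 CPM in KO cDC2 and 125, 84.8 and 95.1 CPM in WT cDC2. Its difference between the subsets was 0.28 in KO (adjusted p = 0.539) and it was higher in cDC1 in WT (1.19, SE 0.29, adjusted p = 0.00994), a call lost without WT cDC2 replicate 2 (adjusted p = 0.0508). Eno1, the enolase, was the 1 enzyme of this stretch on the cDC2 side in both genotypes, averaging 69.1 ± 7.67 CPM in KO cDC1, 58.8 ± 4.06 CPM in WT cDC1, 116 ± 37.0 CPM in KO cDC2 and 101 ± 33.5 CPM in WT cDC2 (SD, n = 3 each), but it missed the threshold (adjusted p of 0.0787 in KO and 0.0564 in WT). Tpi1, the triose phosphate isomerase, averaged 127.9 ± 4.13 CPM in KO cDC1, 140 ± 27.6 CPM in WT cDC1, 78.5 ± 4.64 CPM in KO cDC2 and 71.7 ± 42.3 CPM in WT cDC2, and was not called. Pkm averaged 372 ± 29.5 CPM in KO cDC1, 389 ± 33.3 CPM in WT cDC1, 297 ± 70.1 CPM in KO cDC2 and 296 ± 72.6 CPM in WT cDC2, and was not called.

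Of the lactate dehydrogenases, Ldhb, whose enzyme favours lactate oxidation, was nearly absent from cDC1. Its reads numbered 0, 4 and 5 in KO cDC1, 2, 1 and 1 in WT cDC1, 138, 69 and 46 in KO cDC2 and 35, 92 and 118 in WT cDC2. The level in cDC2 was 3.79, 1.93 and 1.93 CPM in KO and 1.23, 4.28 and 10.7 CPM in WT. The fitted log2 fold changes, -4.35 in KO and -6.10 in WT, rest on these few reads and are given as a description, since the gene entered the set through cDC2. Ldha, at 396, 446 and 479 CPM in KO cDC2 and 645, 410 and 486 CPM in WT cDC2, was not called between the subsets.

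The transporters split between the subsets. Slc2a3 was lower in cDC1, with a log2 fold change of -2.27 in KO (SE 0.40, adjusted p = 0.00182) and -4.49 in WT (SE 0.44, adjusted p = 1.41e-05), the second being 22.5-fold. Slc2a1, which encodes GLUT1, had 18.3, 9.48 and 12.2 CPM in KO cDC1, 15.4, 13.6 and 11.5 CPM in WT cDC1, 35.2, 17.6 and 18.5 CPM in KO cDC2 and 27.7, 21.5 and 13.8 CPM in WT cDC2, and was not called. Its subsets overlapped in both genotypes, yet within each of the 6 mouse pools it was lower in cDC1, with log2 differences of -0.94, -0.89 and -0.59 in the KO pools and -0.85, -0.66 and -0.27 in the WT pools.

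Slc16a1, which encodes the monocarboxylate carrier MCT1, had 27.9, 21.5 and 18.2 CPM in KO cDC1, 33.1, 23.0 and 21.9 CPM in WT cDC1, 9.33, 3.67 and 3.82 CPM in KO cDC2 and 6.24, 5.21 and 4.92 CPM in WT cDC2. It was higher in cDC1 by 2.00 in KO (SE 0.36, adjusted p = 0.00225) and 2.25 in WT (SE 0.37, adjusted p = 0.00075). Slc16a3, which encodes MCT4, a carrier known for lactate export, ran the other way, with 29.2, 24.1 and 24.6 CPM in KO cDC2 and 36.8, 21 and 26.6 CPM in WT cDC2 above all cDC1 libraries. Its log2 fold changes were -2.37 in KO (SE 0.28, adjusted p = 0.000101) and -2.86 in WT (SE 0.29, adjusted p = 1.68e-05). These are the carriers whose promoters are printed above, with ACGTG in both windows and GCGTG in that of Slc16a1.

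In the pentose phosphate pathway, 1 of 7 genes was called between the subsets in KO, where 16.9% of all genes were. This was Tkt, which was higher in KO cDC1 than in KO cDC2 (0.95, SE 0.25, adjusted p = 0.0231), a call lost on leaving out any 1 of 5 KO libraries (adjusted p up to 0.0982), while in WT the difference was -0.12 (adjusted p = 0.774). G6pdx, Pgls, Pgd, Rpe, Rpia and Taldo1 were not called in either genotype, with log2 fold changes of -0.44 to 0.68 in KO and -0.31 to 0.76 in WT. At the entry to mitochondria, Pdk1, which inhibits pyruvate dehydrogenase, had 45.3, 40.6 and 41 CPM in KO cDC1, 42.1, 57.5 and 58.8 CPM in WT cDC1, 32.7, 30.4 and 31.1 CPM in KO cDC2 and 35.3, 28.5 and 33.7 CPM in WT cDC2, with no overlap between the subsets. Its difference was 0.43 in KO (adjusted p = 0.139) and it was higher in cDC1 in WT (0.70, adjusted p = 0.0188), a call lost in 5 of 19 alternatives. Pdha1, a subunit of the enzyme it inhibits, averaged 59.0 ± 8.0 CPM in KO cDC1, 45.8 ± 6.64 CPM in WT cDC1, 61.7 ± 11.9 CPM in KO cDC2 and 63.3 ± 16.8 CPM in WT cDC2 (SD, n = 3 each) and was not called. With the mouse pool as a block, the WT calls of Aldoa (adjusted p = 0.0689), Pdk1 (0.0705) and Pgk1 (0.0627) were lost, leaving 10, where 16.7% of all genes were called. In KO 9 genes were again called with the block, where 11.5% of all genes were.

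**Figure D3:**
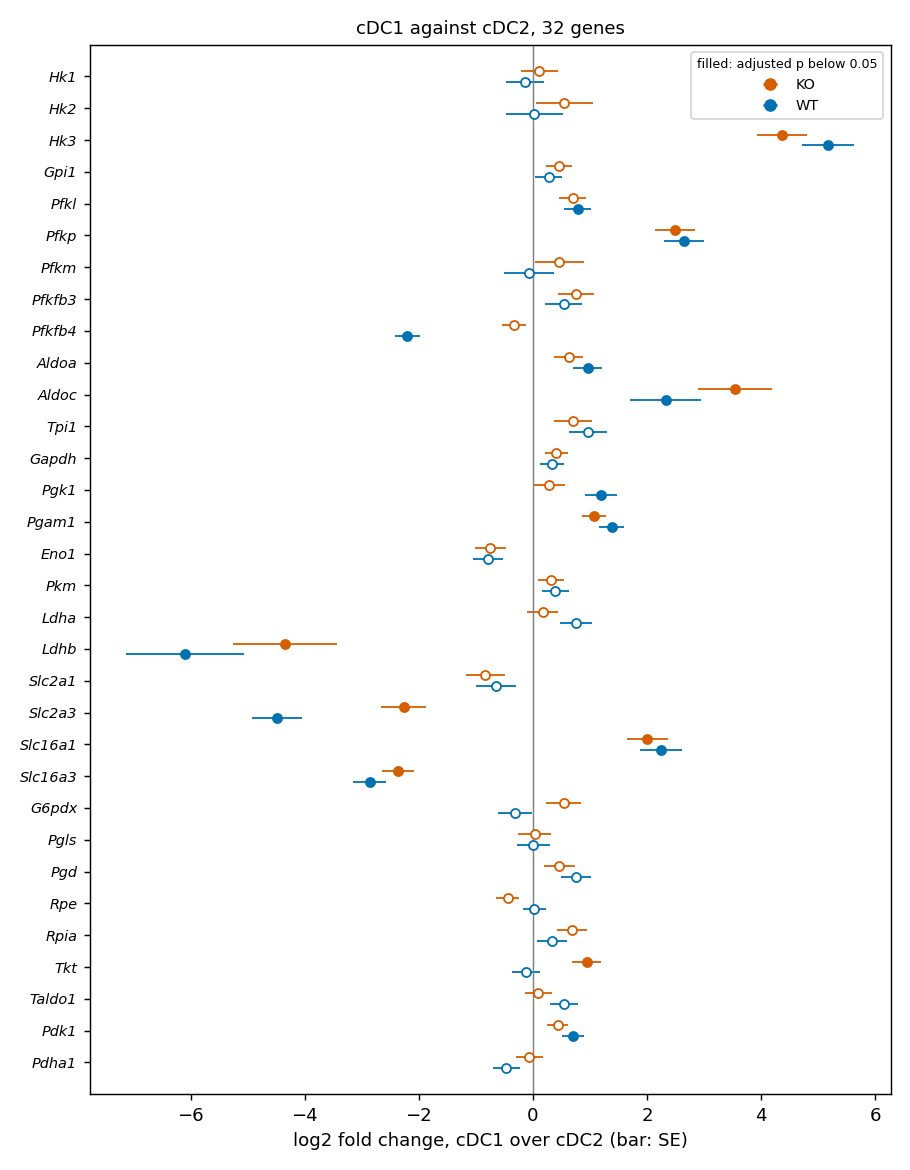
Log2 fold change of cDC1 over cDC2 for the 32 genes in KO (upper point of each pair) and WT (lower point), with bars of 1 standard error and filled points where the adjusted p was below 0.05. Hk3 and Ldhb lie at the ends, at 4.37 and -4.35 in KO and 5.17 and -6.10 in WT, and Pfkfb4 is filled in WT alone.

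Shares within a family, computed per kilobase, put the change of isozyme on 1 scale. Each share was tested over the 6 mouse pools by an exact two-sided sign-flip permutation test of the cDC1 minus cDC2 difference, for which the smallest possible p is 0.0312. By the exact permutation test all 7 shares reached it (p = 0.0312, Benjamini-Hochberg adjusted over the 7 also 0.0312), each in the same direction in 6 of 6 pools. Every one of the 7 families held a gene already called between the subsets in at least 1 genotype, so the tests restate those calls as shares and add no support of their own, and for Ldhb the direction was fixed by how it entered the set.

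Hk3 made up 50.1%, 50.6% and 50.5% of the hexokinases in KO cDC1, 66.6%, 82.3% and 85.5% in WT cDC1, 7.23%, 4.16% and 5.05% in KO cDC2 and 7.10%, 8.78% and 8.18% in WT cDC2, a mean difference between subsets of 57.5 percentage points (SD 15.1, n = 6 pools). Hexokinase RNA in cDC2 was thus mostly Hk1 and Hk2. Pfkp averaged 60.9% ± 0.447 of the phosphofructokinases in KO cDC1, 70.8% ± 3.65 in WT cDC1, 29.0% ± 6.15 in KO cDC2 and 38.1% ± 6.40 in WT cDC2 (SD, n = 3 each; 32.3 points between subsets). Aldoc averaged 17.1% ± 1.54, 7.71% ± 0.739, 2.66% ± 0.822 and 2.46% ± 2.04 of aldolase in the same 4 groups (9.84 points).

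Slc16a1 averaged 72.1% ± 2.32 of Slc16a1 and Slc16a3 together in KO cDC1, 79.7% ± 1.61 in WT cDC1, 10.7% ± 4.32 in KO cDC2 and 10.4% ± 1.93 in WT cDC2 (SD, n = 3 each), a mean difference between subsets of 65.4 points. Slc2a1 made up 42.7%, 31.2% and 36.8% of Slc2a1 and Slc2a3 together in KO cDC1, 67.7%, 81.0% and 83.2% in WT cDC1, 18.2%, 17.9% and 18.5% in KO cDC2 and 19.5%, 18.1% and 15.2% in WT cDC2 (39.2 points between subsets). In cDC1 the KO and WT shares did not overlap for 6 of the 7, all but that of Ldhb, and 3 libraries against 3 cannot go below an exact permutation p of 0.1. This count largely restates the levels of Hk3, Pfkp, Aldoc, Slc2a3 and Pfkfb4, whose KO and WT cDC1 libraries did not overlap. Of all genes, 15.5% lay wholly higher and 11.4% wholly lower in KO cDC1. Pfkfb3 averaged 87.8% of Pfkfb3 and Pfkfb4 together in KO cDC1, 94.5% in WT cDC1, 77.3% in KO cDC2 and 74.6% in WT cDC2 (15.1 points), and Ldhb 0.0373%, 0.0158%, 0.885% and 1.67% of lactate dehydrogenase (-1.25 points).

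**Figure D4:**
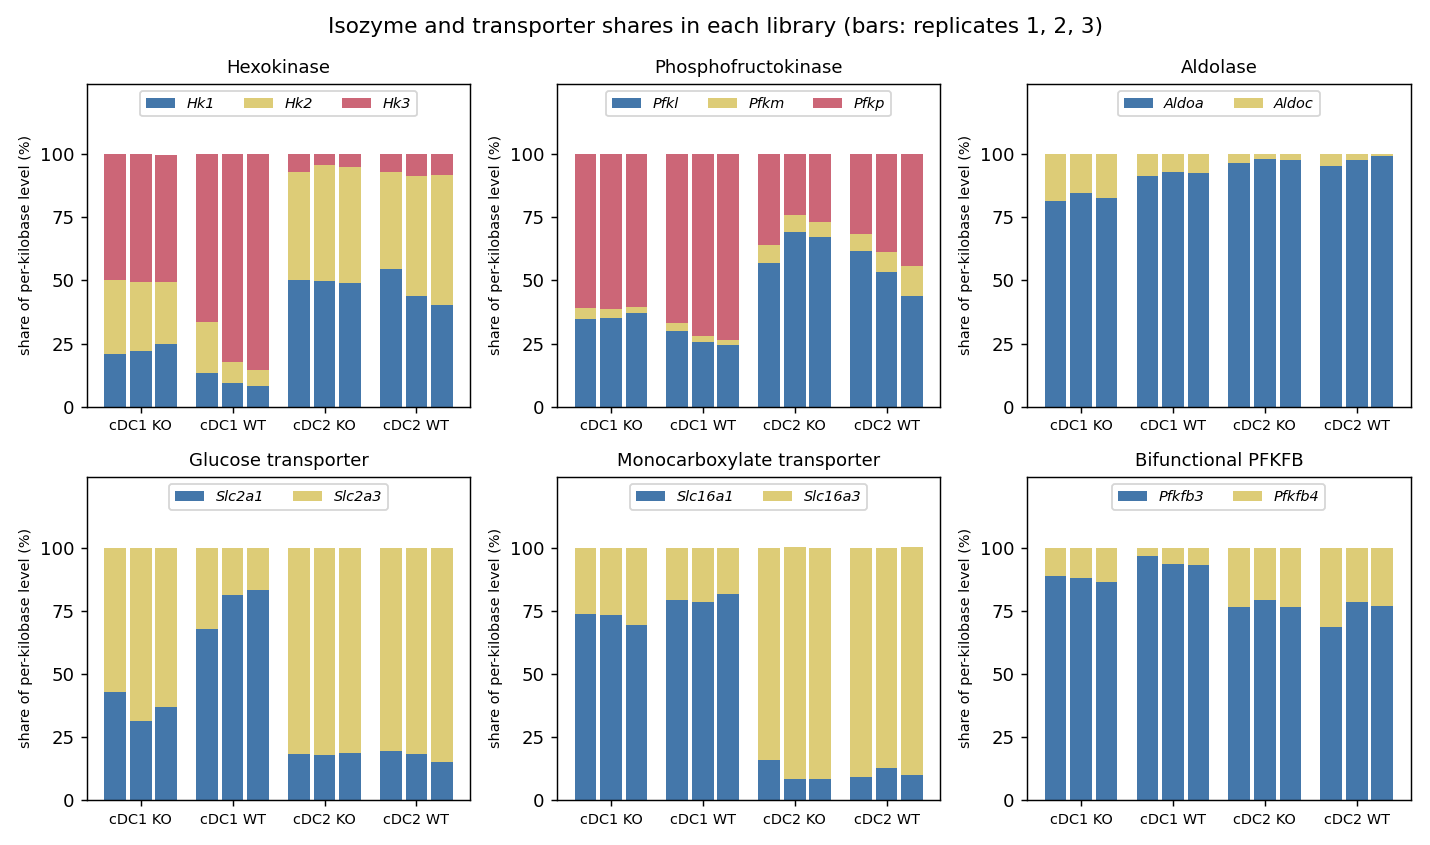
Share of each isozyme or carrier in its family's summed level per kilobase, in percent, with 1 bar per library (replicates 1 to 3 from left to right in each group). Hk3 fills 50.1% to 85.5% of the hexokinase bars in cDC1 and 4.16% to 8.78% in cDC2, and Slc2a1 is the larger part of the glucose transporter bars in WT cDC1 alone.

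Pathway genes outside the set were counted from 7 lists, and edgeR called 3 of their genes between KO and WT cDC1. Of all tested genes it called 5.32% in this contrast, 3.6% higher and 1.72% lower. Of 11 tested genes of other glycolytic enzymes, 1 fell, Adpgk, an ADP-dependent glucokinase (-1.18, SE 0.19, adjusted p = 0.00299), with 29.4, 31.5 and 32.2 CPM in KO cDC1 against 55.3, 78.4 and 78.0 CPM in WT cDC1. Of 11 genes of pyruvate use, 1 fell, Mpc2, of the mitochondrial pyruvate carrier (-1.37, SE 0.35, adjusted p = 0.0403), with 58.2, 49.8 and 57.1 CPM in KO cDC1 against 69, 164 and 194 CPM in WT cDC1. Both genes' groups were free of overlap, and Mpc2 had the same low WT replicate 1 as Pgk1 and Ldha. Of 14 other targets of the hypoxia-inducible factor, 1 rose, Adm, or adrenomedullin (2.32, SE 0.60, adjusted p = 0.0412), with 1.27, 1.86 and 2.37 CPM in KO cDC1 against 0.385, 0.408 and 0.289 CPM in WT cDC1.

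At an unadjusted p below 0.05 these 3 lists held 4, 3 and 5 genes in the order given, where 18.8% of all genes passed, and DESeq2 called 2 lower, 1 lower and 2 higher in them. Of 8 other pentose phosphate genes, 6 other transporters, 13 genes of gluconeogenesis and glycogen and 20 regulators, edgeR called none in KO cDC1. At an unadjusted p below 0.05 these 4 lists held 0, 2, 0 and 5 genes, against the same share of all genes, and DESeq2 called 0, 1, 0 and 1. In cDC2 no list held a gene called between genotypes by edgeR or DESeq2, and the 7 lists together held 1 at an unadjusted p below 0.05. Hif1a, which encodes the oxygen-regulated subunit of the hypoxia-inducible factor, averaged 104 ± 8.66 CPM in KO cDC1, 120 ± 36.9 CPM in WT cDC1, 115 ± 5.47 CPM in KO cDC2 and 95.2 ± 29.4 CPM in WT cDC2 (SD, n = 3 each).

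Between the subsets the lists moved in both directions. In KO, the other targets of the hypoxia-inducible factor had 1 higher in cDC1, P4ha1 (1.04), and 4 lower of 14, namely Adm (-2.37), Ankrd37 (-1.81), Vegfa (-3.53) and Bnip3l (-0.87), where 8.45% of all genes were higher and 8.43% lower. In WT, 2 were higher, Ero1a (1.26) and Ndrg1 (0.98), and 4 lower of 14, namely Adm (-4.35), Ddit4 (-3.42), Ankrd37 (-1.75) and Vegfa (-3.27), where 10.4% of all genes were higher and 10.9% lower. Of the 6 other transporters, edgeR called none in KO, where 2 had an unadjusted p below 0.05 and DESeq2 called 2 lower. In WT, 3 were lower in cDC1, Slc16a7 (-2.26), Slc2a6 (-1.69) and Slc2a9 (-1.68). Of 13 genes of gluconeogenesis and glycogen, Pygl, the liver type glycogen phosphorylase, was lower in cDC1 (-3.05 in KO, adjusted p = 1.5e-05, and -2.47 in WT, adjusted p = 3.8e-05), while Gys1 (0.89 in KO and 1.06 in WT) and Pgm2l1 (1.70 in KO and 1.34 in WT) were higher. Pygl had 8.04, 9.44 and 9.83 CPM in KO cDC1, 14.0, 9.59 and 10.1 CPM in WT cDC1, 102, 60.8 and 64 CPM in KO cDC2 and 47.7, 77.0 and 62.8 CPM in WT cDC2.

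Of the 11 other glycolytic genes, 1 was higher (Minpp1) and 1 lower (Eno3) in KO cDC1, and 2 were higher (Pgam2, Adpgk) and 2 lower (Eno3, Eno1b) in WT cDC1. Of the 8 other pentose phosphate genes, Tktl1, a transketolase-like gene, was higher in cDC1 (4.23 in KO and 3.70 in WT), at levels of 1.87 to 4.34 CPM in cDC1 and 0 to 0.465 CPM in cDC2, and Prps1 was lower in KO cDC1 (-0.80). Of the 20 regulators, 1 was higher in KO cDC1 (Keap1), and 2 were higher (Vhl, Keap1) and 1 lower (Txnip, a brake on glucose uptake, -1.57) in WT cDC1. Of the 11 genes of pyruvate use, 1 was lower in KO cDC1, Mpc1 (-1.78), and edgeR called none in WT (2 at an unadjusted p below 0.05, 0 by DESeq2).

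By replicate number, the genes leaned towards higher levels in the libraries numbered 1. Over the 4 groups, edgeR called none of the 32 between number 1 and numbers 2 and 3, where 2.63% of all genes were called, 1.59% higher and 1.04% lower. At an unadjusted p below 0.05, 12 of the 32 were higher in number 1 and 0 lower (23.3% of all genes passed either way), and DESeq2 called 8, all higher, of 1602 genes it called in all. In 27 of the 32 the log2 fold change was above 0, with a median of 0.34 against 0.03 over all genes. Within groups, 28 of 32 were higher in number 1 in KO cDC1, 19 in WT cDC1, 28 in KO cDC2 and 24 in WT cDC2. The share of all genes higher in number 1 was 55.4% in KO cDC1, 50.2% in WT cDC1, 50.8% in KO cDC2 and 52.2% in WT cDC2.

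Of the other lists, the regulators held 2 genes higher in number 1, Hif1an (0.69) and Egln1 (0.60), and 1 lower, Myc (-1.05), and the other targets of the hypoxia-inducible factor 1 lower, Ddit4 (-1.14). Among the 32, the smallest adjusted p values were those of Slc2a3 (0.76, adjusted p = 0.0558), Slc2a1 (0.67, adjusted p = 0.0569) and Slc16a1 (0.68, adjusted p = 0.0574). Slc2a1 was highest in the library numbered 1 of every group, as its values above show. With length offsets 4 were called, Slc2a1, Eno1, Rpia and Slc2a3, all higher in number 1, where 3.75% of all genes were. Markers of other cells moved with the number: of 4 tested neutrophil markers 3 were lower in number 1, including S100a9 (-3.51) and S100a8 (-3.01), and of 4 tested erythroid and platelet markers 3 were lower, including Hbb-bs (-3.32). Of 7 macrophage markers 2 were lower, C1qb (-1.72) and C1qc (-1.13), and of 5 plasmacytoid dendritic cell markers 1, Klk1 (-5.55). The B, T and NK cell markers held no call. Summed neutrophil markers ran from 0.990 to 86.7 CPM and erythroid and platelet markers from 7.79 to 132 CPM over the libraries. The part of any of these markers in the lean was not tested.

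**Figure D5:**
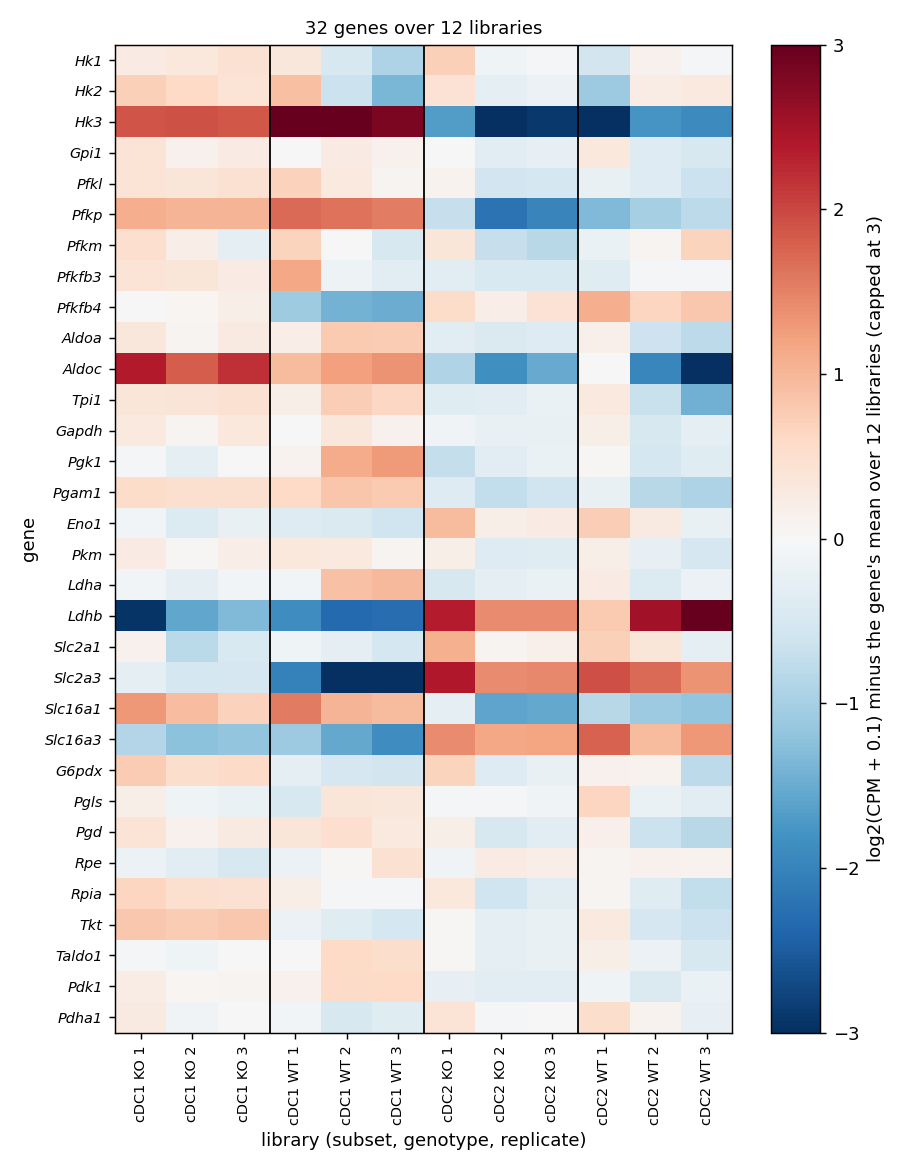
Level of the 32 genes (rows) in the 12 libraries (columns), as log2(CPM + 0.1) minus the gene's mean over the libraries, on a colour scale capped at 3 in either direction. Hk3, Pfkp, Aldoc and Slc16a1 are red in cDC1 and mostly blue in cDC2, Ldhb, Slc2a3 and Slc16a3 the reverse, and WT cDC1 replicate 1 departs from replicates 2 and 3 for Hk1, Hk2, Pgk1 and Ldha.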

How the data were processed

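RNA was sequenced from 12 libraries of sorted splenic cDC1 and cDC2, 3 per subset and genotype, grouped by the labels. The authors counted reads per gene with featureCounts against GRCm38 (mm10), per the submitters' processing notes, and the deposited values are raw counts under Entrez identifiers with a gene length. The strand setting and the aligner are not given in the sources used here. Per-library and series-wide counts were identical for 12 of 12 libraries. RefSeq paired 25275 identifiers with symbols, and the other 1904 held 2.23% of the reads.

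All 12 libraries entered 1 model in edgeR 4.0.16, run under R 4.3.3 (TMM scaling, filterByExpr, 4 group means, robust quasi-likelihood). This left 13415 genes. A call needed p below 0.05 after Benjamini-Hochberg adjustment across those genes. Each SE was derived from the fold change and its F statistic. CPM used TMM-scaled library sizes. For look-alikes, the longest protein-coding transcript of each gene of the set was compared with all GENCODE transcripts. The fitting script was tested on simulated data. Precision follows from the depth and from n = 3: the median SE was 0.33 in either genotype contrast. Counting error is not independent per read, since there were no molecular identifiers.

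The members, lists and tests were chosen with earlier results of these data known. The text names every member, gives each library's value for members called and for the isozyme and transporter families and Gapdh, and names up to 4 called genes per other list and comparison by smallest p. Hif1a, the called targets of the hypoxia-inducible factor beyond the first 4, and some marker and neighbouring genes were named after their values were seen. The labels join cDC1 and cDC2 libraries by mouse pool. Residual correlations within pools were 0.26, 0.14 and 0.14 in KO and -0.20, -0.11 and -0.07 in WT. Alternatives were DESeq2 1.42.0, its size factors in edgeR, no filter, length offsets, libraries numbered 2 and 3 alone, blocks by number or pool, and leaving out each library. The offsets combined with numbers 2 and 3 were added after seeing the data.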

Additional observations from a re-analysis of the deposited data

Results flagged for a closer look

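The KO effect on Pfkfb4 differed between the subsets by a test of the difference itself. The effect in cDC1 minus that in cDC2 was 1.87 (log2, adjusted p = 0.00712, edgeR), with Pfkfb4 higher in KO than in WT in cDC1 (1.41, adjusted p = 0.00211) and at -0.46 in cDC2 (adjusted p = 1). Over the 21 alternatives of this result the adjusted p ran from 2.14e-06 to 0.0461 and the difference from 1.74 to 2.01. Pfkfb4 was itself lower in WT cDC1 than in WT cDC2 (-2.20). All 6 cDC2 markers were called in this interaction in the same direction, at 1.86 (Sirpa) to 4.76 (Itgam). Whether Pfkfb4 moved apart from these markers was not tested.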

How the results depend on the processing

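Limits: each group held 3 libraries, WT cDC1 replicate 1 decided many calls, and the cDC2 genotype contrast called 0 genes. Of 641 recomputed values of single genes, 573 kept direction and side of the threshold, 38 gained it, 30 lost it and none reversed. Counts give members, then all genes, and members alone where a single number stands. KO against WT in cDC1 (3 and 714): DESeq2 6 and 1283, length offsets 5 and 977, numbers 2 and 3 alone 18 and 6438, those with offsets 17 and 5136, leaving out 1 library 2 to 10 and 318 to 3052, the highest without WT cDC1 replicate 1. In cDC2 (0 and 0): numbers 2 and 3 alone 5 and 1039, with offsets 5 and 1152, leaving out 1 library 0 and 0. Interaction (1 and 190): DESeq2 2 and 461, length offsets 2 and 293, numbers 2 and 3 alone 19 and 5157, with offsets 14 and 3779, pool block 2 and 116, leaving out 1 library 1 to 3 and 110 to 501. WT subsets (13 and 2846): numbers 2 and 3 alone 25 and 6391, with offsets 26 and 6389, leaving out 1 library 8 (without WT cDC2 replicate 2) to 16 and 2049 to 3266. KO subsets (9 and 2264): numbers 2 and 3 alone 25 and 6620, with offsets 24 and 6041, leaving out 1 library 8 to 12 and 1209 to 3382. Number 1 (0 and 353): DESeq2's size factors 1, DESeq2 8 and 1602, no filter 1, length offsets 4 and 503, leaving out 1 library 0 to 2 and 70 to 714. The cause was not tested.

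For cDC1, the residual correlations of same-numbered KO and WT libraries stood at 0.02, -0.07 and 0.11. Those for cDC2 stood at -0.05, -0.05 and -0.06. With 3 libraries per group, values this small cannot decide whether the numbers pair the genotypes. Over the 4 groups, edgeR called 353 genes (2.63%) between number 1 and numbers 2 and 3. With the number as a replicate block, G6pdx joined Pfkfb4, Slc2a3 and Tkt in cDC1, and Slc2a3 joined Pfkfb4 in the interaction. With length offsets too, Pgk1 also joined in cDC1, and 301 of all genes were called in the interaction. No member was called in cDC2 with either. The other shares of all genes called with this block are not given here. Leaving out 1 pool gave differences in share of 53.6 to 60.5 points for Hk3, 31.3 to 33.7 for Pfkp, 8.81 to 11 for Aldoc, -1.45 to -0.865 for Ldhb, 33.4 to 44.4 for Slc2a1, 64.1 to 66.9 for Slc16a1 and 12.5 to 16.4 for Pfkfb3. With 5 pools the exact p cannot go below 0.0625. No scaling moved the median of all genes by over 0.1.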
